A study of Rattus norvegicus with 6 samples.

Results

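Transcripts of the proteasome and of the ubiquitin system were followed in the mPFC (medial prefrontal cortex) after a single dose of LSD, an agonist of several serotonin receptors, in male Sprague-Dawley rats. The LSD group received 1.0 mg/kg LSD by the intraperitoneal route and the Saline group received saline, and tissue was taken after 90 min. RNA of each group was read on 3 Affymetrix rat arrays, which measure a transcript with sets of short probes. A gene belonged to the set where a probe set carried a single gene symbol of the proteasome (Psma to Psmg and a digit) or of a fixed set of ubiquitin system prefixes (among them Uba, Ube, Usp, Uchl, Nedd4 and Nedd8), and the brightest of its probe sets stood for it. By this rule 47 of the 4736 genes on the arrays were members, with 76 probe sets between them. The rule works on letters alone, so that it also took in Ubac2 and Ubald1, which carry or resemble a ubiquitin-associated domain. A further 7 probe sets that pair a symbol of this kind with other genes were left out, and no ubiquitin-activating enzyme was among the members. The 47 comprised 6 alpha and 5 beta subunits of the proteasome core, 2 inducible beta subunits, and 5 ATPase and 6 non-ATPase genes of the regulatory cap. The rest were 3 activators, 11 conjugating enzymes, 2 ligases, 4 deubiquitinases, Nedd8, and Ubac2 and Ubald1. Non-ATPase genes were classed by their Psmd symbols, so that the assembly chaperone Psmd10 is counted with the cap throughout.

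Ubiquitin is a small protein that a chain of activating, conjugating (E2) and ligating (E3) enzymes attaches to other proteins, and deubiquitinases take it off again. Proteins that carry chains of ubiquitin are unfolded by the ATPases of the 19S cap and cut inside the 20S core of the proteasome, while Nedd8, a relative of ubiquitin, is attached to cullins and switches on the ligases built on them. In neurons this system removes synaptic proteins, and its activity is needed for lasting changes of synaptic strength. Interferon replaces some catalytic beta subunits by the inducible Psmb8 and Psmb9, which favours the production of peptides for antigen presentation.

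By their labels the groups differ in the injected agent. The labels speak of 4 animals per group with tissue pooled before RNA extraction, but in the paper each array stands for its own pool of a pair of rats. Since these accounts cannot both hold, p-values here reflect how far arrays of a group scatter, and part or all of that may be technical. A second line of each sample description names the opposite treatment from the title and the treatment label. Groups here rest on the titles and the treatment labels, and every sign below would turn if the second line were right. Values are log2 values after RMA, a method that subtracts background, gives all arrays nearly the same distribution and summarises the probes of a set. Medians of the arrays lay between 5.43 and 5.45. Array pairs correlated at 0.986 to 0.995 over genes, and none was identical. Saline 1 stood apart, with 78 probe sets over 1 log2 unit away from the mean of the other 5 arrays, against 2 to 21 for the other arrays. Markers of neurons were present, with mean log2 values of 8.10 to 8.16 on LSD arrays and 7.99 to 8.11 on Saline arrays over the 6 of 9 that were measured. All 6 measured of 8 markers of striatum, which borders the dissected region, lay lower in LSD, with mean log2 values of 5.69 to 5.79 on LSD arrays and 5.93 to 5.96 on Saline arrays. Of the 6 measured of 7 markers of choroid plexus and meninges, 5 lay lower in LSD, with 7.60 to 7.67 against 7.78 to 7.84 on Saline arrays. The log2 signal at the 3′ end minus that at the 5′ end, which grows as RNA degrades, was 0.687 ± 0.041 in LSD and 0.787 ± 0.044 in Saline for beta-actin (SD, n = 3 arrays each), and 0.492 ± 0.091 and 0.523 ± 0.043 for Gapdh. The part of tissue composition and RNA quality in the values of the 47 genes was not tested.

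Promoters were looked up for the members because proteasome subunits are known to be made in step through factors that bind upstream of their genes. RefSeq windows of the GRCr8 assembly, from 250 bases before to 50 bases after the start site, were matched for 46 of the 47 members. Psmb5, the subunit with chymotrypsin-like activity, is shown with the letters TGACNNNGC in capitals, the core of the element that Nfe2l1 and Nfe2l2 bind, which begins 60 bases before the start (chr15:32047330-32047629, minus strand). Psmb8, which takes the place of Psmb5 after interferon, is shown with a match on the reverse strand to GAAA, 2 free bases and GAAA in capitals, the kind of letters that interferon regulatory factors bind, beginning 4 bases before the start (chr20:4656982-4657281, minus strand). Psmb9 is shown because it is a neighbour of the peptide transporter gene Tap1, which is read in the opposite direction from a start site 457 bases away (chr20:4668750-4669049, plus strand). Its first 44 bases, in capitals, also belong to the window of Tap1.
Psmb5: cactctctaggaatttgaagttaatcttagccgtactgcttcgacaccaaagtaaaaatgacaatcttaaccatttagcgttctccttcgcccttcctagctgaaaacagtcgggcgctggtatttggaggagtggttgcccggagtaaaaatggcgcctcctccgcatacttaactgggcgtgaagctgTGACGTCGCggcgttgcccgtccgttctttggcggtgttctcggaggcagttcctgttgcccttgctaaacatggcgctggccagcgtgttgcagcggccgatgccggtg
Psmb8: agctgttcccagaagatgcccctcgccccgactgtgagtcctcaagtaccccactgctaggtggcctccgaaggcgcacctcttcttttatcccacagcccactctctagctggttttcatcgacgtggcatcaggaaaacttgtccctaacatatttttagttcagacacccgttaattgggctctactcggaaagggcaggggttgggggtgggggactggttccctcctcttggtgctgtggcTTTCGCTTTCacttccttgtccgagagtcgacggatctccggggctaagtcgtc
Psmb9: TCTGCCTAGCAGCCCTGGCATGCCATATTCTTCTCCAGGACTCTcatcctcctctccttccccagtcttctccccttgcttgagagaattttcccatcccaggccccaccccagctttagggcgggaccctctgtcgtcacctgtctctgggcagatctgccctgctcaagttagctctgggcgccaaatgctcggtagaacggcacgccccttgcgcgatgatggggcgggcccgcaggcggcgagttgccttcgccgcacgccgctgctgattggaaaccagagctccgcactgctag

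On either strand, TGACNNNGC was present in the windows of 9 of the 46 members (19.6%), against 12.1% of all 33469 RefSeq windows. For each motif the background holds all these windows and is not limited to the genes on the arrays. Psmb2, Psmb5 and Psmd1 were the proteasome subunits among the 9, with the activator Psme4, Ubac2, Ube2d2, Ube2e3, Ube2g2 and Ube2q2. The letters GGAAGNG, of the kind that ETS factors bind, were found in 22 members (47.8%), against 33.4% of all windows. A match to GAAA, 2 free bases and GAAA, a motif chosen after the values were seen, was found in 4 members (8.70%), Psma4, Psmb3, Psmb8 and Psme2, against 3.92% of all windows. Members that hold a motif were found on both sides in the comparison of LSD with Saline. The 9 with TGACNNNGC were split into 4 higher and 5 lower in LSD, with log2 changes of -0.08 to 0.11 and a median of -0.02. With GGAAGNG, 14 were higher and 8 lower, with a median of 0.03, and members without it had a median of -0.01. Whether members with and without it differ was not tested. A match of letters is a description of the window and not a site of binding.

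Members of the proteasome and the ubiquitin system differed little between LSD and Saline. Of the 47 genes, 23 were higher and 24 lower in LSD, with log2 changes (LSD minus Saline) of -0.28 to 0.26 and a median of -0.0008, against a median of 0.0056 over all 4736 genes. The median size of a change, without its sign, was 0.066 log2 units among the members and 0.077 among all genes. No member passed an adjusted p of 0.05 in limma with Benjamini-Hochberg adjustment over all genes, where the lowest adjusted p of a member was 0.971. Among all genes 0.0211% passed, which is 1 gene. An unadjusted p under 0.05 was reached by 1 member (2.13%), Ube2m, against 3.63% of all genes. All LSD arrays lay above all Saline arrays for 3 members (6.38%), Usp40, Psma1 and Psmc4, against 6.97% of genes, and below them for 1 member (2.13%), Psmb9, against 3.34% of genes. None of these shares exceeded that of all genes. The 4 genes without overlap reach an exact two-sided permutation p of 0.1, the smallest that 3 against 3 arrays allow.

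**Figure D1:**
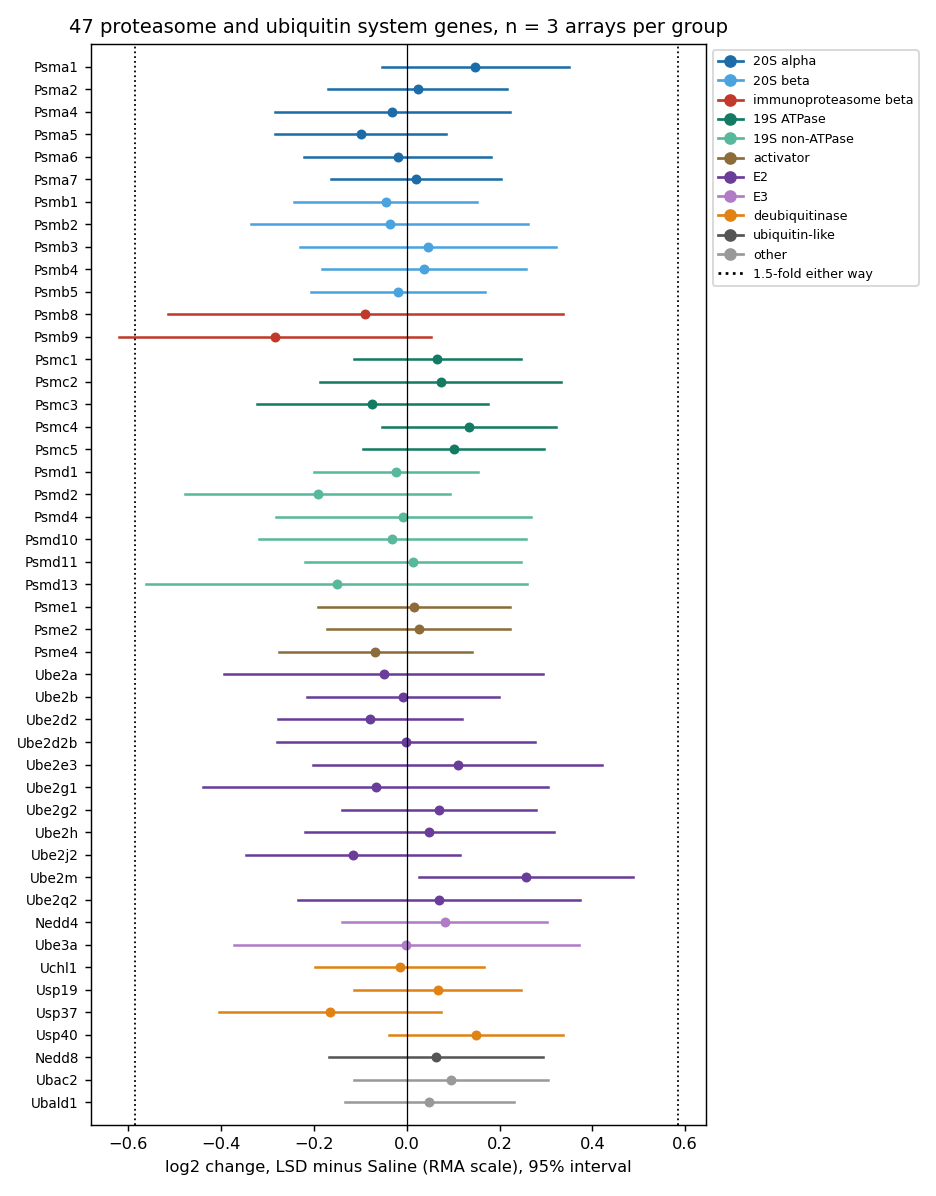
Log2 change (LSD minus Saline) of the 47 member genes, ordered and coloured by role, each with the 95% interval of the limma fit (n = 3 arrays per group). Points lie between -0.28 and 0.26, and only the interval of Psmb9 crosses the dotted line that marks a 1.5-fold difference.

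How much of a difference the arrays leave room for can be read from the intervals. The 95% interval of the change lay within 1.5-fold either way for 46 of the 47 members (97.9%), against 94.0% of all genes. Psmb9 was the exception, with an interval of the LSD over Saline ratio of 0.651 to 1.037. The highest upper bound among the members was 1.401-fold, for Ube2m. Members were also brighter than most genes, since 36 of them lay above the median level of all genes, and their median SD within a group was 0.112 log2 units against 0.124 for all genes. RMA compresses differences of dim probe sets, so that these bounds hold on its scale only. They also rest on the scatter of arrays. Should that scatter be technical, they do not bound the difference between treated and control animals.

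The alpha subunits form the outer rings of the 20S core and gate the entry of substrates. Of the 6 measured, 3 were higher and 3 lower in LSD, with log2 changes of -0.10 to 0.15. Psma1 had log2 values of 5.661, 5.457 and 5.471 on the LSD arrays, against 5.377, 5.340 and 5.428 on the Saline arrays. LSD 1 was the highest of the 6, and the lowest LSD array was 0.029 above the highest Saline array. The change was 0.15 ± 0.09 (SE), with an adjusted p of 0.971 by limma, and 0.08 without LSD 1. A second probe set of Psma1, at 4.674, 4.974 and 4.686 in LSD and 4.618, 4.455 and 4.623 in Saline, also kept the groups apart, with a change of 0.21 ± 0.11. Psma5 leaned the other way, with 7.333, 7.347 and 7.267 in LSD and 7.472, 7.334 and 7.437 in Saline. Here the groups overlapped, since Saline 2 lay below LSD 2, and the change was -0.10 ± 0.08. Psma6, the brightest of the class, had 8.431, 8.642 and 8.521 in LSD, against 8.565, 8.484 and 8.602 in Saline, and its change was -0.02 ± 0.09. Psma2, Psma4 and Psma7 had changes of 0.02, -0.03 and 0.02.

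In the inner beta rings, where proteins are cut, the 5 constitutive subunits measured had the narrowest range of changes in the core, with 2 higher and 3 lower in LSD and changes of -0.05 to 0.05. Psmb4 had 9.499, 9.805 and 9.693 in LSD and 9.642, 9.629 and 9.616 in Saline. The Saline arrays lay between the LSD arrays, and the change was 0.04 ± 0.10. Psmb1 had 8.541, 8.538 and 8.489 in LSD, against 8.445, 8.604 and 8.655 in Saline, with a change of -0.05 ± 0.09. Psmb5, the chymotrypsin-like subunit whose promoter is printed above, had 8.798, 8.769 and 8.732 in LSD and 8.687, 8.829 and 8.841 in Saline. Its LSD values lay inside the span of the Saline values, its change was -0.02 ± 0.08, and the 95% interval of the LSD over Saline ratio was 0.867 to 1.123. Psmb2 and Psmb3 had changes of -0.04 and 0.05.

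For the inducible subunits the Saline arrays scattered widely, with SDs of 0.149 in LSD and 0.279 in Saline for Psmb9, and of 0.10 in LSD and 0.414 in Saline for Psmb8. Psmb9, which takes the place of a catalytic beta subunit after interferon, had 5.328, 5.577 and 5.594 in LSD and 6.106, 5.621 and 5.624 in Saline. All LSD arrays lay below all Saline arrays, but Saline 1 stood far above the other Saline arrays, and those exceeded the highest LSD array by as little as 0.027. The change was -0.28 ± 0.15 (adjusted p of 0.971 by limma), the largest negative one of the set, and -0.12 ± 0.10 without Saline 1. A second probe set of the same sequence, at 4.050, 4.252 and 4.156 in LSD and 5.061, 4.074 and 4.322 in Saline, was again highest on Saline 1, and there the groups overlapped. Psmb8 had 6.393, 6.266 and 6.195 in LSD, against 6.819, 6.300 and 6.002 in Saline, which places both the highest and the lowest of the 6 arrays in Saline. Its change was -0.09 ± 0.19 with all arrays and 0.13 without Saline 1, so that the sign turned with that array.

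Other genes of antigen presentation were mixed on Saline 1. Tap1, whose promoter window shares its first bases with that of Psmb9, had 5.955, 6.031 and 5.739 in LSD and 5.387, 6.357 and 6.148 in Saline, and was lowest where Psmb9 was highest. B2m, the light chain of the molecules that present these peptides, had 7.592, 7.794 and 7.748 in LSD and 7.873, 7.849 and 7.842 in Saline. As for Psmb9, all LSD arrays lay below all Saline arrays and Saline 1 was the highest, with a change of -0.14 ± 0.08 (adjusted p of 0.971 by limma). Saline 1 was also the highest Saline array for RT1-Da, Irf1 and Irf7. For RT1-Da and Irf1 only LSD 3 lay above it. For Irf7 all LSD arrays lay above all Saline arrays, with a change of 0.08 ± 0.08 (adjusted p of 0.971 by limma). For Cd74, Tap2 and Mx1 it was instead the lowest of the 6 arrays, at 5.629, 4.823 and 4.864. Cd74 was higher in LSD and its groups did not overlap. Its change was 0.26 ± 0.11, with an unadjusted p of 0.0494 and an adjusted p of 0.971 by limma. Over the 11 of 16 listed genes of antigen presentation and interferon response that were measured, 6 were higher and 5 lower in LSD, with mean log2 values of 5.99 to 6.06 on LSD arrays and 5.92 to 6.08 on Saline arrays, the lowest being that of Saline 1. Of the 8 listed microglia markers 6 were measured, with mean log2 values of 5.75 to 5.88 in LSD and 5.72 to 5.87 in Saline. Saline 1 had the highest of the Saline means. The dim marker Itgam was highest there, at 3.553 against 2.951 to 3.166 on the other arrays, while Aif1 was lowest there, at 6.789. The mean of 5 of 7 listed endothelial markers was 5.88 to 6.18 in LSD and 5.89 to 6.39 in Saline, and Saline 1 was again the highest. Kdr set most of this spread, and without it the mean of the other 4 markers was 6.41 to 6.50 in LSD and 6.43 to 6.57 in Saline, with Saline 1 still the highest, although Flt1 was lowest there. The part of blood vessel or microglia RNA in the value of Psmb9 on Saline 1 was not tested.

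**Figure D2:**
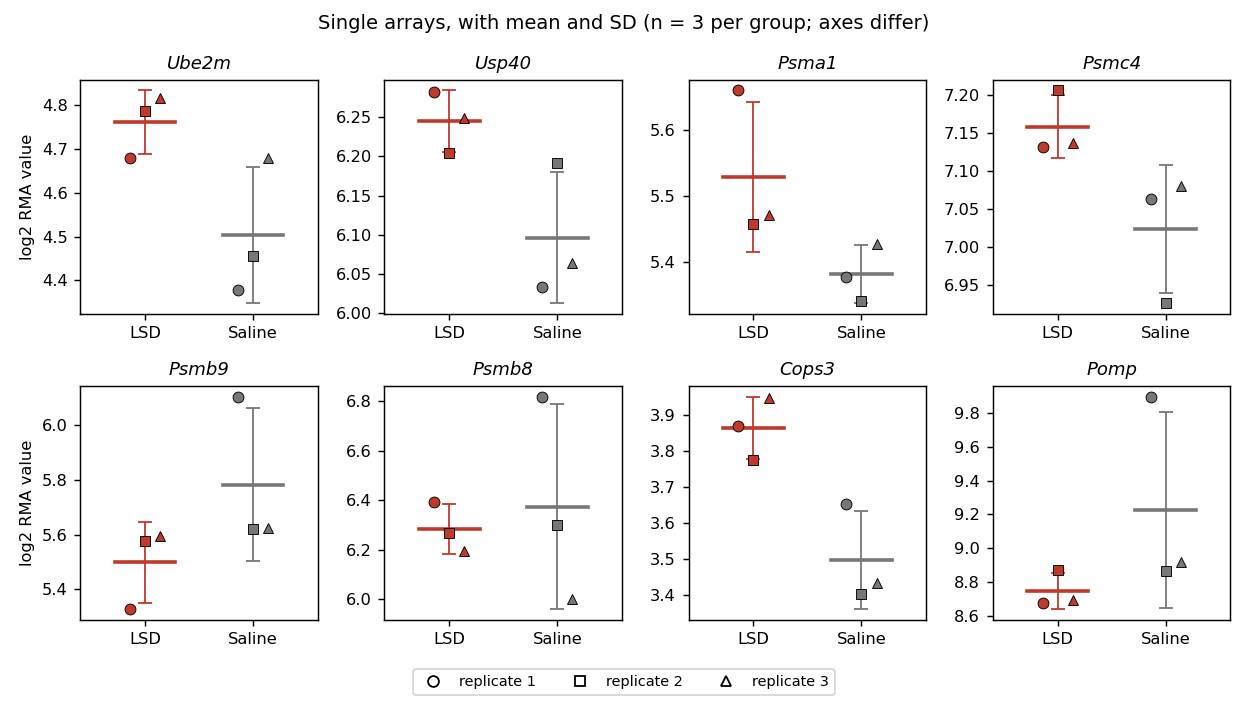
Log2 RMA values on each array for 6 members and for Cops3 and Pomp of the same pathways, with LSD left of Saline, a line for the mean and a bar for the SD (n = 3 arrays per group). The 3 LSD arrays lie above the 3 Saline arrays for Usp40, Psma1, Psmc4 and Cops3, and for Psmb9, Psmb8 and Pomp the highest point is Saline 1.

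The 5 ATPases of the 19S cap measured here unfold substrates and open the gate of the core. Of these, 4 were higher and 1, Psmc3, was lower in LSD, with a median of 0.07. Psmc4 had 7.132, 7.206 and 7.137 in LSD and 7.064, 6.927 and 7.081 in Saline. The groups did not overlap, and the lowest LSD array was 0.051 above the highest Saline array. The change was 0.13 ± 0.08, with an adjusted p of 0.971 by limma, and it ran from 0.09 to 0.16 as each array was left out in turn. Psmc5 had 8.281, 8.342 and 8.206 in LSD, against 8.271, 8.141 and 8.115 in Saline, so that only Saline 1 reached into the LSD values, and the change was 0.10 ± 0.08. Psmc1, Psmc2 and Psmc3 had changes of 0.07, 0.07 and -0.07, all with overlapping groups.

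The non-ATPase subunits of the cap catch ubiquitinated proteins and remove their chains. Of the 6 Psmd genes classed with them, the chaperone Psmd10 included, 5 were lower in LSD, with a median of only -0.03. Psmd2, a large scaffold that docks ubiquitin carriers, had 7.966, 7.696 and 7.640 in LSD and 7.775, 8.137 and 7.966 in Saline. LSD 1 was as high as Saline 3, while LSD 2 and LSD 3 were the lowest of the 6. The change was -0.19 ± 0.12 (adjusted p of 0.971 by limma). It hung on single arrays, with -0.10 without Saline 2 and -0.13 without LSD 3, against -0.28 without Saline 1 and -0.29 without LSD 1, where the adjusted p was 0.953 by limma. Psmd1, the other large scaffold, had 8.837, 8.910 and 8.927 in LSD and 8.913, 8.873 and 8.957 in Saline, with a change of -0.02 ± 0.08. Its other 3 probe sets had changes of 0.07, -0.17 and -0.12, and for the one at -0.17 all LSD arrays lay below all Saline arrays. Psmd13 scattered most among the cap genes, with values of 6.640 to 6.979 in LSD and of 6.620 on Saline 3 to 7.354 on Saline 1, and a change of -0.15 ± 0.18. The ubiquitin receptor Psmd4, the assembly chaperone Psmd10 and Psmd11 had changes of -0.01, -0.03 and 0.01.

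Activators bind the ends of the core in place of the 19S cap. The interferon-inducible pair Psme1 and Psme2 had changes of 0.02 and 0.03, and Psme4, a nuclear activator, had -0.07. Psme1 had 9.566, 9.466 and 9.689 in LSD and 9.522, 9.639 and 9.515 in Saline, which overlapped throughout. For Psme4 the values were 5.803, 5.751 and 5.755 in LSD and 5.984, 5.733 and 5.795 in Saline, with Saline 1 the highest. Their SDs in Saline, 0.070 for Psme1, 0.088 for Psme2 and 0.131 for Psme4, were smaller than that of Psmb9.

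The 22 constitutive core and cap genes were also read array by array, as each gene's deviation from its own mean over the 6 arrays. Their median deviation was 0.01, 0.004 and -0.02 on LSD 1, LSD 2 and LSD 3, against -0.07, 0.004 and 0.06 on Saline 1, Saline 2 and Saline 3. The highest and the lowest of these medians both belonged to Saline arrays, so that the LSD arrays lay between them. Saline 1 had the lowest value of the 6 arrays for 9 of the 22 genes (40.9%), namely Psma2, Psma4, Psma7, Psmb1, Psmb2, Psmb3, Psmb5, Psmd4 and Psmd10, while it was lowest for 25.3% of all genes. Over all 47 members it held the highest or the lowest value for 28 (59.6%), against 45.2% of all genes. LSD 1 did so for nearly as many of all genes (42.9%), but for 16 of the members (34%). Between the groups, 10 of the 22 were higher and 12 lower in LSD, with a median of -0.01 and a range of -0.19 to 0.15. All 22 intervals lay within 1.5-fold.

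**Figure D3:**
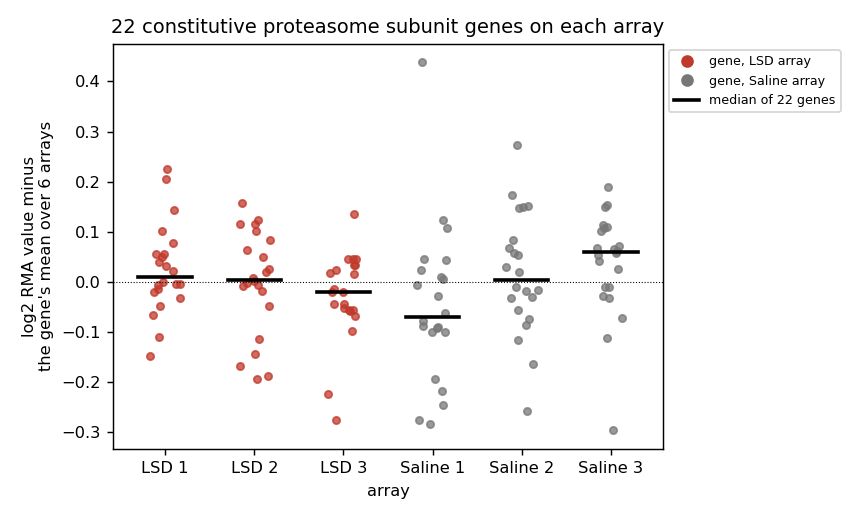
Deviation of each of the 22 constitutive proteasome genes from its mean over the 6 arrays (log2 units), by array, with LSD arrays left of Saline arrays and a line for the median of the genes. The medians of LSD arrays, from -0.02 to 0.01, lie between those of Saline 1 (-0.07) and Saline 3 (0.06).

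Conjugating enzymes carry ubiquitin, or a relative of it, to the ligases. Of the 11 members, 5 were higher and 6 lower in LSD, with a median of -0.002. Ube2m, which carries Nedd8 to cullins, had the lowest p of all members. Its values were 4.678, 4.787 and 4.816 in LSD and 4.379, 4.455 and 4.678 in Saline. LSD 1 and Saline 3 met at 4.678, and the other LSD arrays lay above all Saline arrays. The change was 0.26 ± 0.10, or a ratio of 1.20 with a 95% interval of 1.018 to 1.401, with an unadjusted p of 0.033 and an adjusted p of 0.971 by limma. Leaving out single arrays gave changes of 0.19 without Saline 1 to 0.34 without Saline 3, where the adjusted p was 0.994 by limma. The unadjusted p stayed under 0.05 only without LSD 1 or without Saline 3. A single probe set reads Ube2m on these arrays.

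Among the other E2 genes, Ube2j2, which works at the membrane of the endoplasmic reticulum, had 8.806, 8.552 and 8.745 in LSD and 8.932, 8.806 and 8.713 in Saline. Its groups overlapped and the change was -0.12 ± 0.10, with -0.04 without LSD 2 and -0.06 without Saline 1. Ube2d2, a partner of many ligases, had 5.511, 5.539 and 5.632 in LSD, against 5.714, 5.677 and 5.529 in Saline, with a change of -0.08 ± 0.09. The DNA repair enzymes Ube2a and Ube2b had changes of -0.05 and -0.01, and Ube2g1 and Ube2g2, of which the second serves the removal of misfolded proteins from the endoplasmic reticulum, had -0.07 and 0.07. Changes of Ube2e3, Ube2h, Ube2q2 and Ube2d2b were 0.11, 0.05, 0.07 and -0.002. Of these, Ube2e3, Ube2q2 and Ube2d2b had mean log2 values of 3.40, 3.33 and 2.67, near the lower end of the array scale, where RMA leaves little room for a change.

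Only 2 ligases were members. Nedd4, which tags membrane receptors and channels, had 7.712, 7.651 and 7.519 in LSD and 7.410, 7.576 and 7.651 in Saline. LSD 1 and Saline 1 were the ends of the range, the groups overlapped, and the change was 0.08 ± 0.10. Ube3a, the ligase whose maternal copy is lost in Angelman syndrome, had 5.641, 6.296 and 6.216 in LSD and 6.096, 5.993 and 6.067 in Saline. Its LSD group held both the lowest array, LSD 1, and the highest, LSD 2. The change was -0.0008 ± 0.16, with a 95% interval of the ratio of 0.772 to 1.293, and without LSD 1 its unadjusted p was under 0.05.

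Of the 4 deubiquitinases, 2 were higher and 2 lower in LSD. Usp40 had 6.282, 6.204 and 6.249 in LSD and 6.034, 6.191 and 6.064 in Saline. The lowest LSD array, LSD 2, was 0.013 above the highest Saline array, Saline 2. Its change was 0.15 ± 0.08, with an adjusted p of 0.971 by limma, and 0.12 to 0.20 as each array was left out. A second probe set of Usp40, from the same sequence, had 5.861, 5.882 and 5.886 in LSD and 5.590, 5.721 and 5.792 in Saline, which again did not overlap, and a change of 0.18 ± 0.09. Usp37, which acts in the cell cycle, had 5.171, 5.352 and 5.221 in LSD and 5.334, 5.309 and 5.597 in Saline. Saline 3 was the highest and the groups overlapped, with a change of -0.17 ± 0.10, and of -0.07 without Saline 3. Uchl1, one of the most abundant proteins of neurons, had 10.054, 9.970 and 9.903 in LSD and 10.010, 9.994 and 9.967 in Saline. The Saline values lay inside the span of the LSD values, and the change was -0.01 ± 0.08. Usp19, anchored in the endoplasmic reticulum, had a change of 0.07.

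Nedd8 had 9.541, 9.591 and 9.538 in LSD and 9.635, 9.540 and 9.305 in Saline, where Saline 1 was the highest and Saline 3 the lowest of the 6. The change was 0.06 ± 0.10, with -0.03 without Saline 3 and 0.13 without Saline 1. A second, dimmer probe set of Nedd8, at 5.169, 5.287 and 5.216 in LSD and 5.539, 5.351 and 5.319 in Saline, kept the groups apart in the opposite direction, with -0.18 ± 0.09. Which of them follows the transcript was not tested, and both are of less specific types. Ubac2 had 7.067, 7.048 and 7.008 in LSD and 6.853, 6.888 and 7.097 in Saline, with a change of 0.10 ± 0.09, and Ubald1 had 0.05.

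**Figure D4:**
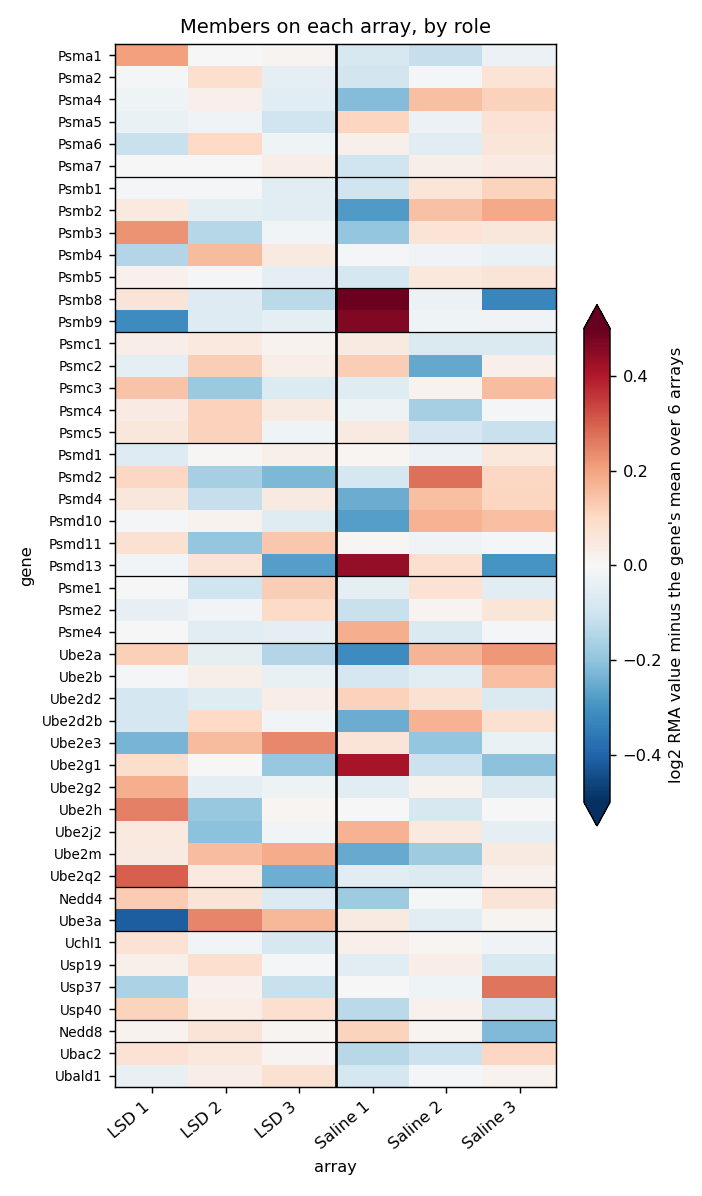
Deviation of each of the 47 members from its mean over the 6 arrays (log2 units, colour scale ending at 0.5 either way), with LSD arrays left of Saline arrays and genes grouped by role. Single strong cells stand out more than whole groups, such as Psmb8, Psmb9 and Psmd13 on Saline 1 and Ube3a on LSD 1.

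Several probe sets were available for 19 of the 47 genes, and 28 had one. Tested over all 8740 probe sets, none of the 76 passed an adjusted p of 0.05 by limma, where the lowest was 0.981. Among all probe sets 0.0686% passed. An unadjusted p under 0.05 was reached by the single probe set of Ube2m alone, at 0.0367 by limma. The share of all probe sets that reached it is not given here, so that this count has no background. For 8 of the 19 genes all probe sets had the same sign, and 16 of the 29 further probe sets shared the sign of the one that stood for the gene. Their changes ran from -0.33 for Psmb9 to 0.21 for Psme1, whose brightest probe set had 0.02. Of the 76, 5 had all LSD arrays above all Saline arrays, as had 6.58% of all probe sets, and 3 had them all below, as had 3.79% of all probe sets. Those above belonged to Usp40 and Psma1 with both of their probe sets and to Psmc4, and those below to Psmb9, Psmd1 and Nedd8.

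Further genes of these pathways, from a list of 147 cullins, ligases, signalosome subunits, ubiquitin-like proteins, shuttles and assembly factors, were measured in 37 cases. Of these, 14 were higher and 23 lower in LSD, with a median of -0.04, and none passed an adjusted p of 0.05 by limma. An unadjusted p under 0.05 was reached by 2 (5.41%), against 3.63% of all genes, and both were subunits of the COP9 signalosome, which takes Nedd8 off cullins. Cops3 had 3.869, 3.773 and 3.947 in LSD and 3.652, 3.403 and 3.433 in Saline. The groups did not overlap, the change was 0.37 ± 0.10, and the adjusted p was 0.951 by limma with an unadjusted p of 0.00515. Its means of 3.86 in LSD and 3.50 in Saline lay near the lower end of the array scale. Cops7a had 8.254, 8.360 and 8.451 in LSD and 8.263, 8.111 and 8.027 in Saline, where Saline 1 reached just above LSD 1. Its change was 0.22 ± 0.10 with an unadjusted p of 0.0489 and an adjusted p of 0.971 by limma. The unadjusted p of Cops7a stayed under 0.05 only without LSD 1 or without Saline 1. Without any other single array it was 0.108 to 0.166 by limma. Cops8, the other listed subunit of the signalosome that was measured, had a change of 0.12 with an unadjusted p of 0.262 and an adjusted p of 0.971 by limma, and Gps1, a subunit that was not listed, had 0.02. Cops8 and Gps1 are named after their values were seen. Ubqln1, a shuttle that brings ubiquitinated proteins to the proteasome, had a change of 0.24 ± 0.11.

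On the other side, Pomp, the chaperone that assembles the 20S core, had 8.676, 8.871 and 8.691 in LSD and 9.898, 8.866 and 8.920 in Saline. Saline 1 stood far above the rest, and it was also the highest array for Psmb9 and Psmb8. The change of Pomp was -0.48 ± 0.25 with it and -0.15 ± 0.09 without it. Sem1, a small subunit of the 19S cap, and Znrf1, a ligase, had changes of -0.18 ± 0.11 and -0.17 ± 0.11, with overlapping groups. That of Sem1 was -0.10 without LSD 3 and -0.27 without LSD 1, and that of Znrf1 was -0.07 without LSD 1 and -0.27 without LSD 2.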

How the data were processed

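The authors deposited log2 values, which the methods describe as RMA values from the affy package (version not given in the sources used here). RMA comprises background correction, quantile normalisation across the 6 arrays and summary of each probe set. A shift shared by most transcripts is therefore not visible, no detection calls were used, and precision depends on the number of arrays. Of 8799 probe sets in the table, 59 controls were left out and 8740 tested. In the platform annotation 7006 of these had 1 symbol, 308 several and 1426 none. All 47 members matched a RefSeq gene by gene ID, and 0 symbols changed. The probe set with the highest mean stood for a gene, as in the study's methods, and for 9 members it was of a type (_s_at, _i_at or _r_at) that may bind other transcripts.

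LSD was compared with Saline in limma 3.58.1 under R 4.3.3, by lmFit and eBayes without covariates. Tests were two-sided, with Benjamini-Hochberg adjustment over 4736 genes or 8740 probe sets and a threshold of 0.05. Errors of changes are standard errors and intervals are 95% intervals of that fit. Exact permutation tests used all 20 assignments of the labels. Values on single arrays are given for the 12 members of lowest p, for the brightest member and the member of lowest p of each role, and for members past the threshold, of which there were 0. Values of Psmb5 and Ube3a, ranges of Psmd13, and single marker genes were added after they had been seen. Of the other pathway genes the 3 of lowest p in each direction are named. The members and lists were chosen with earlier results of these data known. Alternatives were other scalings, a filter on dim genes, other variance models, a replicate block, array weights, other choices of probe set and leaving out each array. The fit was tested on simulated data.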

Additional observations from a re-analysis of the deposited data

How the results depend on the processing

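No member and none of their probe sets passed an adjusted p of 0.05 under any alternative run. The number of members with an unadjusted p under 0.05 was 1 in the comparison as reported. It was 0 among genes above the median level, of which 4.35% reached it in the fit over all genes. With an intensity trend and robust prior it was 0, against 4.46% of all genes. Array weights gave 5 (Psmc3, Psmc5, Psmd2, Ube2e3 and Ube2m; 10.6% against 14.8% of all genes). The lowest weights were those of Saline 1 (0.322) and LSD 1 (0.43), and the other arrays had 1.027 to 2.775. Leaving out single arrays gave 0 to 4, with 4 without LSD 1 (Psmd2, Ube2e3, Ube2m and Ube3a; 8.51% against 4.24% of all genes), 1 without Saline 1 (Psmd2; 2.13% against 9.31%), 1 without Saline 3 (Ube2m; 2.13% against 2.93%) and 0 without LSD 2, LSD 3 or Saline 2. Members whose groups did not overlap, 4 as reported, numbered 7 after a further quantile normalisation, a larger share than the 10.1% of all genes. Among genes above the median level there were 2 (5.56% of members there against 13.2% of genes). With one array left out there were 6 to 13, where a group of 2 arrays separates more easily and 16.7% to 28.8% of all genes did so. The share of members exceeded that of all genes without LSD 1 (23.4% against 22.3%) and without Saline 3 (21.3% against 17%). It lay below that of all genes without any other single array. The median change of the members, -0.0008, was -0.018 with array weights. With one array left out it ran from -0.0117 without LSD 2 to 0.0359 without Saline 3, where that of all genes was 0.0146. Of 347 values of the 22 named members under up to 16 alternatives, 325 kept the sign, including all 187 of the 12 members of lowest p. With one array left out the change moved by over 1.5 times or turned sign for 18 of the 22, all but Psma5, Psmc5, Ube2m and Usp40, and 8 of the 18 turned sign. Another probe set moved 8 values by 1 SD or more, for Psma5, Psma6, Psmd1, Psme1, Nedd8 and Uchl1. Deviations of arrays with the same replicate number correlated at -0.02, -0.23 and 0.15, against -0.14 to 0.20 for arrays with unlike numbers. From 3 arrays per group, each centred on its group mean, these correlations cannot show whether the numbers pair the samples. With the replicate block 0 members passed the threshold and 1, Ube2m, had an unadjusted p under 0.05 by limma (2.13% against 2.79% of all genes). With 3 arrays per group, unclear pooling and an array that stands apart, differences within the intervals given remain possible. The intervals are not limits of detection, and larger differences could also miss the threshold. The 1 gene past it, COX3, had a change of -0.77 with an adjusted p of 0.0487 by limma. COX2, with a change of -0.79, had an adjusted p of 0.971 by limma.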
